A study of Mus musculus with 14 samples.

Results

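The genes taken up here were the 2 liver X receptors (LXRs), *Nr1h3* (LXRα) and *Nr1h2* (LXRβ), and 7 genes that carry cholesterol out of cells or that are known as LXR targets in lipid metabolism, namely *Abca1*, *Abcg1*, *Apoe*, *Mylip*, *Srebf1*, *Scd1* and *Lpcat3*. They are 9 of the 56414 genes listed, found by symbol, with 1 row for each symbol. The list was chosen by the values of *Abcg1*, which was higher with nicotinamide (NAM) in both tumor models, so the NAM values of *Abcg1* are given as a description and were not tested. Bulk RNA-seq had been performed on 14 whole tumors of C57Bl/6 mice, with 1 library per tumor. M/D-driven mammary tumors (4 without and 4 with NAM) had arisen in females that were 6 to 9 weeks old when they received a subcutaneous pellet releasing 50 mg of medroxyprogesterone acetate (MPA) over 90 days, followed by 6 gavages of 200 µL of 7,12-dimethylbenz[a]anthracene (DMBA) at 5 mg/mL in corn oil. AT3 tumors (3 untreated and 3 NAM-treated) had grown from 1000000 cells of a single mouse mammary carcinoma cell line injected under the skin. In both models mice were randomized at a tumor area of 0.25 cm2, and NAM, a form of vitamin B3, was given at 0.5% in the drinking water for 10 days, whereas untreated mice received no agent. The labels do not say whether each tumor came from a separate mouse, and *p* values measure only the spread between these tumors. In whole tumors, fewer cells of a type and less RNA per cell cannot be told apart.

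LXRs are nuclear receptors that bind oxysterols, the oxidized forms of cholesterol, and act on DNA together with a retinoid X receptor (RXR). When cholesterol accumulates, they switch on ABC transporters that load cholesterol onto lipoproteins, the ubiquitin ligase MYLIP (also known as IDOL), which limits the uptake of lipoproteins, and the synthesis and desaturation of fatty acids through SREBP1. In mammary tumors these genes are expressed by cancer cells as well as by macrophages and adipocytes.

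LXR and RXR bind direct repeats of the sequence AGGTCA with a spacer of 4 bases, hence promoters were searched for this pattern on both strands. RefSeq windows on GRCm38.p6, reaching from 250 bases before to 50 bases after a transcription start, were at hand for 7 of the 9 genes (12 windows). *Abcg1* and *Scd1* were not among them. No window of these genes held an exact AGGTCA, which occurs in 16.3% of the 32851 windows of all genes. With up to 3 mismatches at the 12 defined positions, the repeat was found in 1 window each of *Abca1* and *Srebf1*, against 21.9% of all windows. These matches had the letters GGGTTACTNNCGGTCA in common. This shared string, searched after it had been seen, was found in 3 of the 32851 windows (0.00913%), which belong to *Abca1*, *Srebf1* and *Fasn*, the fatty acid synthase gene. The 250 bases upstream of these 3 starts are shown on the strand of the gene, with the 16-base match, which reads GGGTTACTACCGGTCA or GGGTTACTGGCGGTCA on the opposite strand, in capitals:
Abca1: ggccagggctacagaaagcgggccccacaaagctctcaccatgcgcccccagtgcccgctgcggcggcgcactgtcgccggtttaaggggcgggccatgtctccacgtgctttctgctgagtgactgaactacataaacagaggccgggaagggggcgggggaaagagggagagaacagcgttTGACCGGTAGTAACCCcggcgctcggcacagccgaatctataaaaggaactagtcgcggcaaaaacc
Srebf1: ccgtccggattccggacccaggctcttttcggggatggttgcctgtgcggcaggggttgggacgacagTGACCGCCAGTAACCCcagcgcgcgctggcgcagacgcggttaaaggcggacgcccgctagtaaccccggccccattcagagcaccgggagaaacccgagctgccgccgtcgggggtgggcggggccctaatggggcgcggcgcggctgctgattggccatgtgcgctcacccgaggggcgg
Fasn: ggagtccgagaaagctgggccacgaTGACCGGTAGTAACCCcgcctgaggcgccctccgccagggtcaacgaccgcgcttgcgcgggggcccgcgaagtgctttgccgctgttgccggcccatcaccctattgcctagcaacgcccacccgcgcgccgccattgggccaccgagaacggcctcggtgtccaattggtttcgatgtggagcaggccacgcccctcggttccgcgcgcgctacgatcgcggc
The *Abca1* stretch lies at chr4:53159896-53160145 on the minus strand, and its match spans 67 to 52 bases before the start. The *Srebf1* stretch lies at chr11:60210472-60210721 on the minus strand, with the match 182 to 167 bases before a start that lies inside the gene. The *Fasn* stretch lies at chr11:120824548-120824797 on the minus strand, with the match 225 to 210 bases before the start. The matches are a description of letters, and no factor binding was measured in these tumors.

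Reads recovered from the deposited values ranged from 40936868 to 84178009 per tumor. In its B cell and epithelial markers, a single tumor stood apart from the others of its group. In NAM-treated M/D tumor 1, the 9 B cell markers summed to 340691 normalized counts, against 741 to 2521 in the 7 other M/D-driven tumors, with 67823 for *Vpreb1* and 80368 for *Igll1*, both of which belong to the pre-B cell receptor. Its 9 epithelial markers, which define the labelled mammary tumor, summed to 8368, against 274623 to 1042760 in the others. This tumor is also the only M/D-driven tumor labelled as experiment 2, the other 7 being from experiment 1 and all AT3 tumors from experiment 3. The NAM differences of the 9 genes in M/D-driven tumors, and the calls in the gene lists that follow, are therefore given with and without it. NAM-treated M/D tumor 4 had the highest sums of skeletal muscle markers (239123, the next being 75961) and T cell markers (8652, the next being 5339) among M/D-driven tumors. It also had their highest values of *Abca1*, *Apoe* and *Mylip*. Without tumor 4 the *Apoe* difference changed sign (−0.18), and other differences without it are not listed separately.

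In M/D-driven tumors, *Nr1h3* rose with NAM and *Lpcat3*, which inserts polyunsaturated fatty acids into membrane phospholipids, fell. In AT3 tumors *Abca1*, the transporter that hands cholesterol to poorly lipidated apolipoproteins, rose. Calls were made by limma on log2(normalized count + 1), a scale that understates changes of low genes, with thresholds of 1.5 for the fold change and of 0.05 for the unadjusted test. None of these calls passed Benjamini-Hochberg adjustment over all genes tested, as was also the case for nearly all other genes (an adjusted *p* ≤ 0.05 was reached by 0.00461% of genes in M/D-driven and by 0.00519% in AT3 tumors). The receptor *Nr1h2*, the lipoprotein *Apoe* and the lipogenic genes *Srebf1* and *Scd1* were not called in either model, and neither was *Mylip*.

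Among the receptors, *Nr1h3* (chr2:91184061-91195116 on mm10) had 860, 692, 863 and 837 normalized counts in untreated M/D-driven tumors 1 to 4, and 3418, 1134, 1614 and 1454 with NAM, in the same numbering. All NAM-treated tumors were above all untreated tumors, and NAM-treated tumor 1 was the highest. The mean was 813 ± 81.4 (SD, *n* = 4) untreated and 1905 ± 1028 (SD, *n* = 4) with NAM, and the log2 difference was 1.10 (SE 0.34; limma adjusted *p* = 0.73). The exact two-sided permutation test gave *p* = 0.0286, the smallest *p* that 4 against 4 tumors allow, unadjusted. Without NAM-treated M/D tumor 1, hence within experiment 1, the log2 difference was 0.77 (limma adjusted *p* = 0.81), and the call remained. In AT3 tumors *Nr1h3* had 509, 284 and 511 normalized counts untreated and 413, 286 and 274 with NAM, with overlapping groups and a log2 difference of −0.40 (SE 0.31; limma adjusted *p* = 0.44).

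*Nr1h2* varied little between tumors. Its counts were 5117, 5811, 5326 and 6208 in untreated and 5646, 6089, 5072 and 5271 in NAM-treated M/D-driven tumors, and 4037, 3528 and 2868 in untreated and 2969, 3442 and 2971 in NAM-treated AT3 tumors. Groups overlapped in both models, with log2 differences of −0.02 (95% interval −0.37 to 0.32) in M/D-driven and −0.14 (95% interval −0.62 to 0.33) in AT3 tumors.

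**Figure D1:**
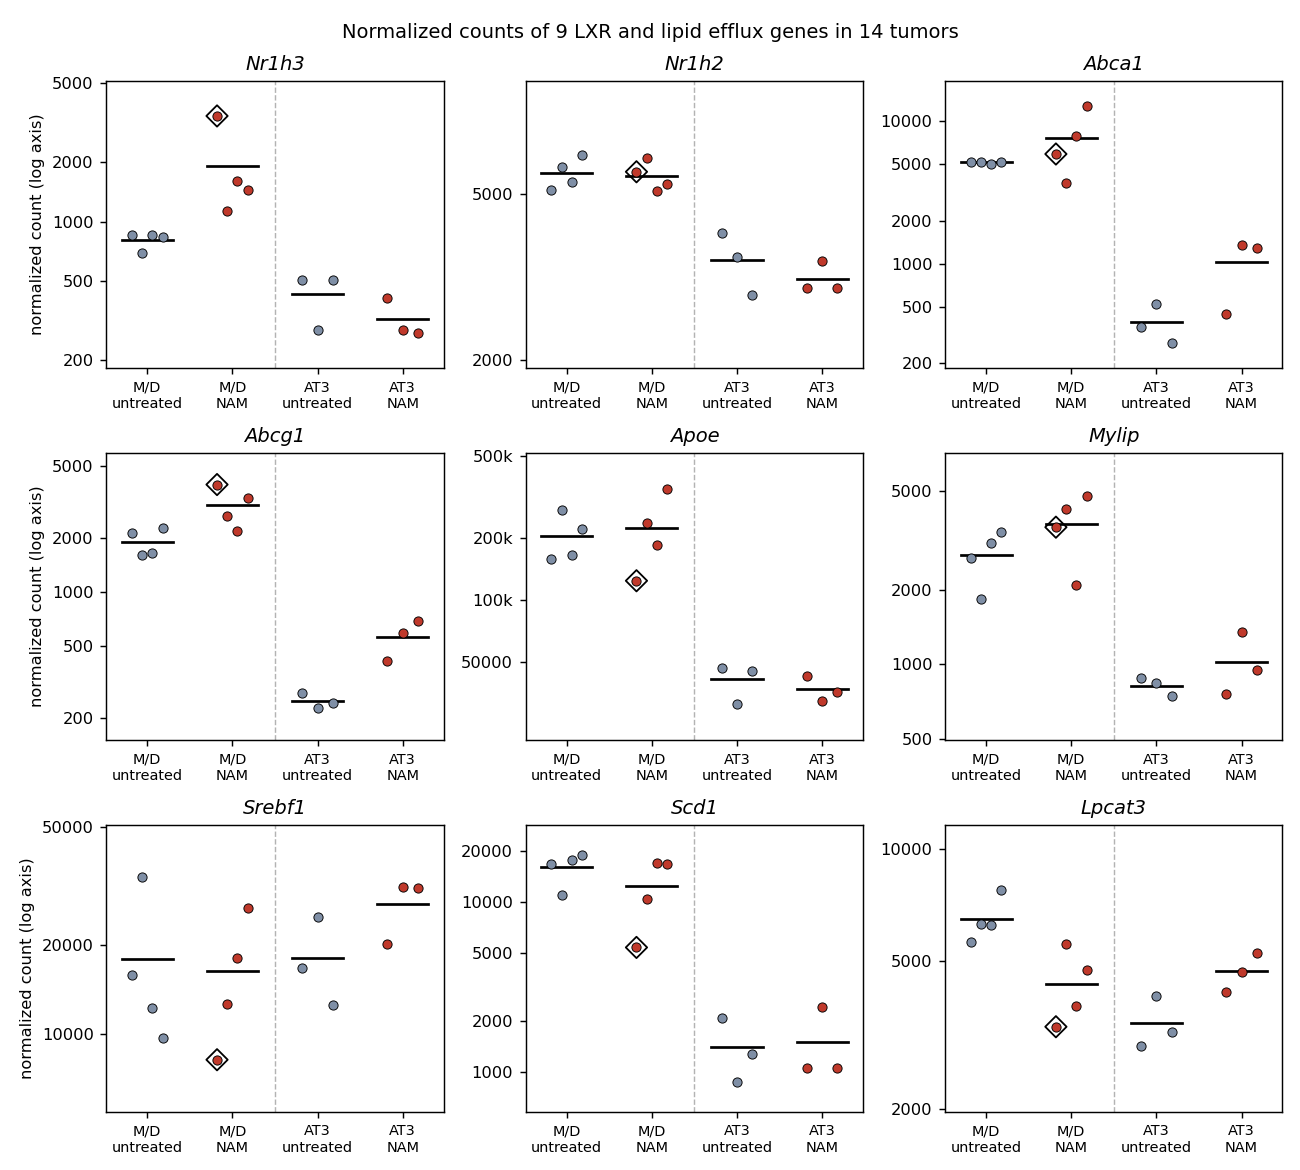
Normalized counts (log axis) of the 9 genes in each of the 14 tumors, by model and treatment, where dots are tumors, bars are group means and the diamond marks NAM-treated M/D tumor 1. *Nr1h3* is above all untreated M/D-driven tumors in each NAM-treated one (1134 to 3418 against 692 to 863), while the 4 untreated values of *Abca1* lie between 5022 and 5186.

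Both efflux transporters had higher means with NAM in both models. For *Abcg1* (chr17:31057694-31117984), which moves cholesterol to mature HDL particles, untreated M/D-driven tumors had 2115, 1616, 1637 and 2261 normalized counts and NAM-treated ones 3952, 2644, 2176 and 3324. The groups overlapped, since NAM-treated tumor 3 was below untreated tumor 4, and the log2 difference was 0.64, or 0.50 without NAM-treated M/D tumor 1. In AT3 tumors *Abcg1* had 277, 226 and 241 counts untreated and 416, 593 and 689 with NAM, without overlap, and the log2 difference was 1.16. These differences are those for which the list was taken up.

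*Abca1* (chr4:53030788-53159896) had 5185, 5186, 5022 and 5166 normalized counts in untreated M/D-driven tumors, a spread of 78.9 (SD) around a mean of 5140. With NAM it had 5878, 3708, 7901 and 12722 counts. Hence 3 NAM-treated tumors were above and 1 was below all untreated tumors, and the log2 difference of 0.41 (SE 0.34; limma adjusted *p* = 0.80) did not pass the test. In AT3 tumors *Abca1* had 359, 526 and 278 counts untreated and 445, 1352 and 1281 with NAM. NAM-treated tumors 2 and 3 were above all untreated AT3 tumors, whereas NAM-treated tumor 1 lay among them. The mean went from 388 ± 126 to 1026 ± 505 (SD, *n* = 3 each), and the log2 difference was 1.29 (SE 0.44; limma adjusted *p* = 0.17). The exact permutation test of these tumors gave *p* = 0.20, and with 3 against 3 tumors no *p* below 0.10 can be reached. The call was lost without untreated AT3 tumor 3 (log2 difference 1.07), NAM-treated AT3 tumor 2 (1.01) or NAM-treated AT3 tumor 3 (1.05).

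*Apoe*, the apolipoprotein that accepts cholesterol and returns it to the liver, had 157559, 273045, 165772 and 222270 normalized counts in untreated and 123792, 237419, 184198 and 346768 in NAM-treated M/D-driven tumors. In AT3 tumors it had 46367, 31117 and 45200 counts untreated and 42463, 32106 and 35649 with NAM. The groups overlapped in both models, and the log2 differences were 0.06 (95% interval −0.71 to 0.84) and −0.14 (95% interval −0.69 to 0.41). *Mylip*, the ubiquitin ligase that limits lipoprotein uptake, had 2677, 1839, 3092 and 3432 counts in untreated and 3576, 4249, 2093 and 4762 in NAM-treated M/D-driven tumors. In AT3 tumors *Mylip* had 878, 838 and 741 counts untreated and 759, 1352 and 946 with NAM. Its groups overlapped as well, with log2 differences of 0.38 (limma adjusted *p* = 0.80) and 0.28 (limma adjusted *p* = 0.51).

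Of the genes of lipid synthesis and remodelling, *Srebf1*, which encodes the transcription factor SREBP1, varied widely between M/D-driven tumors of a group. Its row also holds *Mir6922* and *Mir6921* and shares 111 bases with that of *Rai1* (4552 normalized counts on average). It had 15768, 34064, 12201 and 9663 counts in untreated and 8169, 12580, 18064 and 26667 in the 4 tumors that received NAM. The untreated tumors spanned almost the whole range of the NAM-treated ones, and the log2 difference was −0.09 (95% interval −1.17 to 0.99). In AT3 tumors *Srebf1* had 16705, 24813 and 12544 counts untreated and 20113, 31492 and 31257 with NAM, with an overlap of 1 tumor in each group and a log2 difference of 0.64 (limma adjusted *p* = 0.22). *Scd1*, the stearoyl-CoA desaturase that makes monounsaturated fatty acids, had 16625, 11024, 17705 and 18936 counts in untreated and 5407, 10452, 16823 and 16585 in NAM-treated M/D-driven tumors. Its log2 difference was −0.49 (SE 0.38; limma adjusted *p* = 0.80), and −0.14 without NAM-treated M/D tumor 1, which had the lowest value. In AT3 tumors *Scd1* had 2090, 881 and 1280 counts untreated and 1059, 2420 and 1059 with NAM, and the log2 difference was 0.07.

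*Lpcat3* (chr6:124663104-124704716) had 5631, 6297, 6236 and 7736 normalized counts in untreated and 3327, 5537, 3786 and 4717 in NAM-treated M/D-driven tumors. All NAM-treated tumors were below all untreated ones, and tumor 1 was again the farthest. The mean fell from 6475 ± 893 to 4342 ± 985 (SD, *n* = 4 each), and the log2 difference was −0.59 (SE 0.21; limma adjusted *p* = 0.73; exact permutation *p* = 0.0286, unadjusted). Without NAM-treated M/D tumor 1 the difference was −0.48, which is less than 1.5-fold, and the call was lost. It was also lost without untreated M/D tumor 4 (−0.51) and without NAM-treated M/D tumor 3 (−0.54). In AT3 tumors *Lpcat3* had 2951, 4023 and 3229 counts untreated and 4131, 4677 and 5252 with NAM. All NAM-treated AT3 tumors were above all untreated ones, and the log2 difference was 0.47 (SE 0.21; limma adjusted *p* = 0.21), which was not called. The *Lpcat3* row shares 346 bases with that of *Emg1*, which averaged 9398 normalized counts, and the strand setting of the counting is not given in the sources used here.

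In M/D-driven tumors 1 of the 8 members tested was called higher and 1 lower, whereas among all 21700 genes tested 6.22% were called, 3.03% higher and 3.19% lower. Groups did not overlap for 2 of these 8 genes, against 4.43% of all genes, namely 2.43% higher and 2% lower. In AT3 tumors 1 of 8 was called higher and 0 lower, against 23.1% of the 19281 genes tested, 12.2% being higher and 10.9% lower. Groups did not overlap for 1 of these 8 genes, which was higher, against 22.6% of all genes, namely 11.7% higher and 11% lower. Without NAM-treated M/D tumor 1, the log2 differences of the uncalled genes in M/D-driven tumors were 0.49 for *Abca1*, 0.37 for *Mylip*, 0.31 for *Apoe*, 0.20 for *Srebf1*, which changed sign, and −0.04 for *Nr1h2*. The median log2 difference of the 8 tested genes was 0.02 in M/D-driven and 0.17 in AT3 tumors, against 0.01 and −0.05 for all genes tested.

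**Figure D2:**
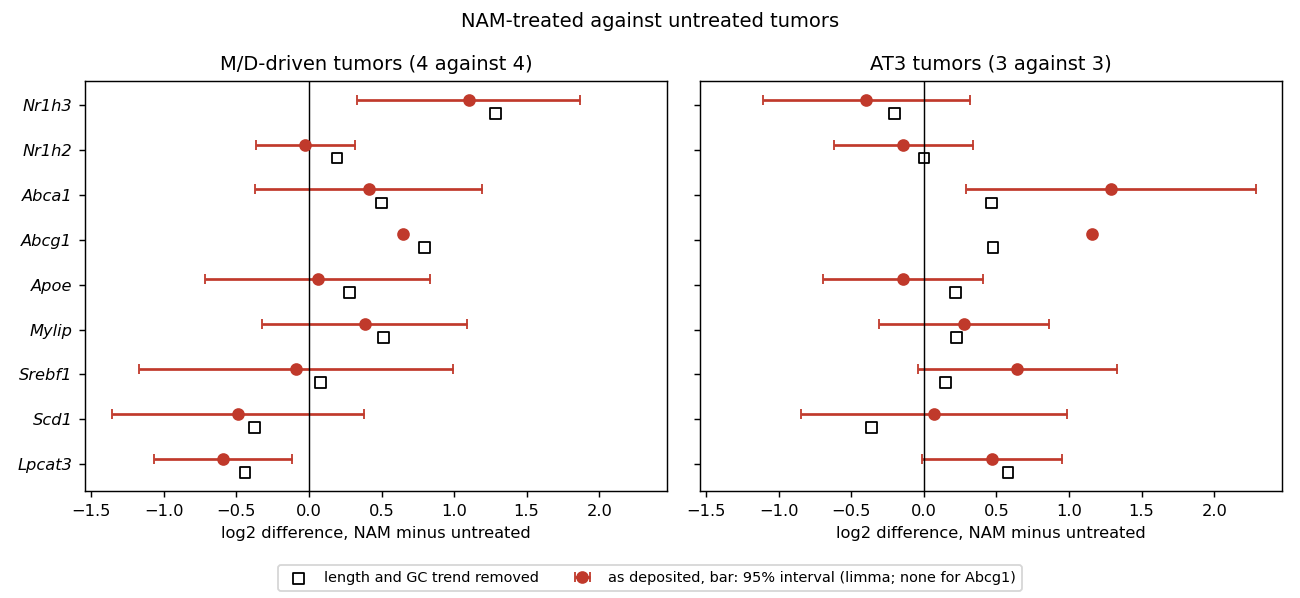
Log2 differences with NAM (horizontal axis, NAM-treated minus untreated) of the 9 genes in M/D-driven (left) and AT3 tumors (right), with dots for the deposited values, bars for 95% intervals of limma (not drawn for *Abcg1*) and squares for values corrected for the length and GC content of transcripts. The interval lies above 0 for *Nr1h3* in M/D-driven tumors and for *Abca1* in AT3 tumors, where the square of *Abca1* is at 0.47.

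In AT3 tumors the difference with NAM went with transcript length over all genes. Spearman's rho between the log2 difference and the longest transcript was 0.59 over 16429 genes, against −0.04 over 18460 genes in M/D-driven tumors. These are correlations across genes, which are not independent replicates. The *Abca1* transcript (10262 bases) and the *Abcg1* transcript (5832 bases) are the longest of the 9, and in AT3 tumors the tenth of genes with the longest transcripts had a median difference of 0.73. After correction of each tumor for this trend, and likewise for GC content, the log2 difference in AT3 tumors was 0.47 for *Abca1* (SE 0.24; limma adjusted *p* = 0.29), which was no longer called, and 0.48 for *Abcg1*. *Srebf1* came to 0.15, whereas *Lpcat3*, with 2373 bases, came to 0.58 (limma adjusted *p* = 0.16), still under 1.5-fold. After this step 0 of the 8 tested genes were called in AT3 tumors, against 7.88% of genes higher and 7.9% lower. In M/D-driven tumors *Nr1h3* stayed called at 1.28, and *Lpcat3* was not called at −0.44, against 2.45% higher and 3.17% lower. What underlies the trend was not tested.

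**Figure D3:**
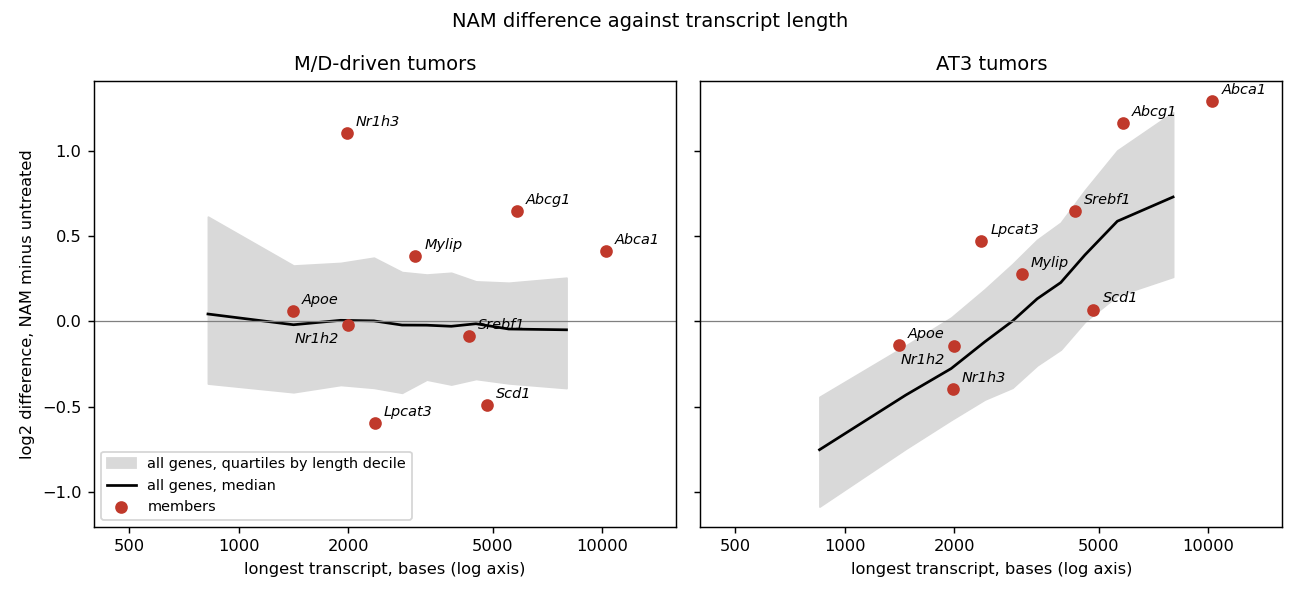
Log2 difference with NAM (vertical axis) against the length of the longest transcript in bases (log axis) in M/D-driven (left) and AT3 tumors (right), where the line and band are the median and quartiles of all genes by length decile and the dots are the 9 genes. In AT3 tumors the median runs from −0.75 in the shortest decile to 0.73 in the longest, with *Abca1* and *Abcg1* at the upper right, while in M/D-driven tumors the line stays near 0.

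The effect of NAM was compared between the models by an interaction term over the 14 tumors. For *Nr1h3* the M/D difference exceeded that in AT3 tumors by 1.496 on the log2 scale (SE 0.49; limma adjusted *p* = 0.20). For *Lpcat3* the M/D difference was lower by a log2 value of −1.06 (SE 0.29; limma adjusted *p* = 0.16). Unadjusted *p* values ≤ 0.05 were found for 16.7% of the 18271 genes tested, and adjusted *p* values ≤ 0.05 for 0%. For *Abca1* the interaction was −0.88 (95% interval −2.18 to 0.43), and the other tested genes lay between −0.73 (*Srebf1*) and 0.20 (*Apoe*). The interaction was fitted without correction for the length trend of AT3 tumors. With that correction, M/D and AT3 differences were 0.50 and 0.47 for *Abca1*, and 0.08 and 0.15 for *Srebf1*. They were 1.28 and −0.20 for *Nr1h3*, and −0.44 and 0.58 for *Lpcat3*. An interaction of corrected values was not tested. Without NAM-treated M/D tumor 1 the interaction was 1.17 for *Nr1h3* (limma adjusted *p* = 0.16), −0.94 for *Lpcat3* (limma adjusted *p* = 0.14) and −0.80 for *Abca1* (limma adjusted *p* = 0.48). Model and experiment cannot be told apart.

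Of the receptor partners, corepressors and coactivators of LXR, 0 of 10 genes tested were called higher and 1 lower in M/D-driven tumors, namely the corepressor *Nrip1* (log2 difference −0.62, SE 0.23), which was no longer called without NAM-treated M/D tumor 1 (−0.49). In AT3 tumors 7 of 9 were called higher and 0 lower, against 12.2% of all genes higher, led by the coactivators *Ncoa2* (2.47, SE 0.57) and *Ncoa1* (1.49, SE 0.40), *Nrip1* (1.43, SE 0.46) and the heterodimer partner *Rxra* (1.42, SE 0.41). After removal of the length and GC trend 4 of the 9 were called, namely these same genes, against 7.88% of all genes higher. The median of this list was −0.04 in M/D-driven and 1.05 in AT3 tumors, or 0.21 in AT3 tumors without the trend. Of other genes known as LXR targets, 0 of 14 were called in M/D-driven tumors (median −0.20), where *Apoc2* and *Apoc4* share 1 row. In AT3 tumors 3 of 13 were called higher (median 0.26), namely the fatty acid desaturase *Fads2* (0.87, SE 0.23), the elongase *Elovl5* (0.86, SE 0.21) and the phagocytic receptor *Mertk* (0.81, SE 0.30), and *Fads2* and *Elovl5* remained called without the trend. *Fasn*, whose promoter is shown above, had differences of 0.10 (SE 0.49) in M/D-driven and 0.59 (SE 0.41) in AT3 tumors and was not called.

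Among the cholesterol transporters, acceptors and genes of ester handling, 1 of 14 was called lower in M/D-driven tumors, the sterol carrier *Stard4* (−0.77, SE 0.27), and 0 higher. *Stard4* stayed called without NAM-treated M/D tumor 1 (−0.99). In AT3 tumors 2 of 15 were called higher, the oxysterol-binding protein gene *Osbp* (0.91, SE 0.29) and the lysosomal acid lipase gene *Lipa* (0.81, SE 0.28), and 1 lower, the HDL apolipoprotein *Apoa1* (−1.16, SE 0.46). After removal of the length and GC trend *Lipa* (0.74) stayed called, *Osbp* (0.47) and *Apoa1* (−0.63) did not, and the 2 genes called lower were then the lipid transporter *Abca7* (−1.23) and the lysosomal cholesterol carrier *Npc2* (−0.82). Of the genes that make or inactivate oxysterols, the LXR ligands, 1 of 7 was called lower in M/D-driven tumors, the oxysterol hydroxylase *Cyp7b1* (−1.24, SE 0.46, not called at −1.07 without NAM-treated M/D tumor 1), and 0 of 7 in AT3 tumors. Of the genes of SREBP processing and lipoprotein uptake, 1 of 9 was called lower in M/D-driven tumors, *Insig2* (−0.78, SE 0.27), which retains SREBPs in the endoplasmic reticulum, and 0 higher. *Insig2* was not called without NAM-treated M/D tumor 1 (−0.57). In AT3 tumors 3 of 9 were called higher, the protease gene *Mbtps2* (1.18, SE 0.40), whose product releases SREBPs, *Srebf2* (1.18, SE 0.29), which encodes SREBP2, and the lipoprotein receptor gene *Lrp8* (1.00, SE 0.34). Of these, *Mbtps2* (0.98) stayed called without the trend, while *Srebf2* (0.54) and *Lrp8* (0.34) did not. Of the relatives of *Scd1* and *Lpcat3*, 1 of 9 was called lower in M/D-driven tumors, the desaturase *Scd3* (−1.35, SE 0.56), which was not called without NAM-treated M/D tumor 1 (−1.04). In AT3 tumors 4 of 9 were called higher, the desaturase *Scd2* (1.53, SE 0.36) and the lysophospholipid acyltransferases *Mboat1* (0.93, SE 0.28), *Mboat7* (0.74, SE 0.28) and *Lpcat1* (0.67, SE 0.21). *Scd2* (0.94) and *Mboat1* (0.97) stayed called without the trend, whereas *Mboat7* (0.58) and *Lpcat1* (0.40) did not.

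Over these lists 0 of 63 genes were called higher and 5 lower in M/D-driven tumors, against 3.03% and 3.19% of all genes. In AT3 tumors 19 of 62 were called higher and 1 lower, against 12.2% and 10.9%. Without NAM-treated M/D tumor 1 the former counts were 1 higher, the lipoprotein receptor gene *Vldlr*, and 3 lower, *Stard4*, *Srebf2* and the acyltransferase gene *Mboat2*, against 2.85% and 2.33% of all genes. These genes, like *Abca7* and *Npc2*, were named after their values had been seen. Without the length and GC trend, 0 were called higher and 2 lower in M/D-driven tumors (2.45% and 3.17% of all genes), and 10 higher and 2 lower in AT3 tumors (7.88% and 7.9%). All these calls rest on unadjusted *p* values. In the main fits the smallest adjusted *p* by limma among the genes named was 0.73 in M/D-driven and 0.17 in AT3 tumors. After removal of the trend it was 0.15 in AT3 tumors.

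Markers of other cell types also differed between tumors, and their part in the values above was not tested. Adipocyte markers summed to 36895 to 99374 normalized counts in untreated and to 53893 to 161611 in the 4 tumors that received NAM. The log2 difference was above 0 for 8 of 8 of them (median 0.77), and 2 of 8 were called higher, the adipokine *Adipoq* and the adipocyte regulator *Pparg*, both also without NAM-treated M/D tumor 1 (median 0.58). In AT3 tumors they summed to 5849 to 9394 untreated and 2943 to 7323 with NAM, with 0 higher and 1 lower (*Fabp4*). Macrophage markers summed to 191297 to 271926 in untreated and 202830 to 283700 in NAM-treated M/D-driven tumors, and 0 of 12 were called. In AT3 tumors they summed to 76785 to 145322 untreated and 82051 to 116939 with NAM, and 4 of 12 were called higher (*Adgre1*, *Csf1r*, *Mrc1* and *Cd163*). The log2 difference was above 0 for only 5 of these 12 markers (median −0.16), and 0 were called lower. After removal of the length and GC trend 2 of the 12 were called in AT3 tumors, *Adgre1* and *Cd163*, and the median was 0.25. Epithelial markers summed to 333947 to 1042760 in untreated and 8368 to 657310 in NAM-treated M/D-driven tumors, with 0 of 9 called and a median of −1.46. That median was −0.31 without NAM-treated M/D tumor 1, and 1 of 9 was then called lower (*Cdh1*). In AT3 tumors they summed to 81014 to 100971 and 73159 to 82504, with 1 of 9 higher (*Cdh1*) and 2 lower (*Krt19* and *Krt14*), none of which was called without the trend. Of 6 endothelial markers, 5 were called higher in AT3 and 0 in M/D-driven tumors, and of 6 fibroblast markers 2 and 0. Without the trend these were 3 of 6 and 2 of 6 in AT3 tumors. Of 5 skeletal muscle markers, 1 was called higher in M/D-driven tumors (*Myh4*), which stayed called without NAM-treated M/D tumor 1. There they summed to 133 to 25597 untreated and to 1065 to 239123 with NAM. NAM-treated tumors 1 (2899) and 3 (1065) were below untreated tumors 3 (25597) and 4 (12700). B cell markers had 3 of 8 lower in AT3 tumors, or 2 without the trend, and 0 of 9 called in M/D-driven tumors, and of 6 T cell markers 0 were called in either model. In M/D-driven tumors without NAM-treated tumor 1, 0 macrophage, endothelial, fibroblast, B cell and T cell markers were called. No marker was at 0 in all tumors of a group. For comparison, 12.2% of all genes were called higher and 10.9% lower in AT3 tumors, or 7.88% and 7.9% after removal of the trend. Among M/D-driven tumors these shares were 3.03% and 3.19%, or 2.85% and 2.33% when NAM-treated tumor 1 was left out. Whether any marker list exceeded these shares was not tested.

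Across the 8 M/D-driven tumors, *Apoe* went with the mean of the macrophage markers (Pearson's *r* = 0.79, exact permutation *p* = 0.0201; Spearman's rho = 0.69, exact permutation *p* = 0.0694), and *r* was 0.70 without the 2 tumors farthest from the median of the markers. *Nr1h3* went with the adipocyte markers (*r* = 0.78, exact permutation *p* = 0.0164; rho = 0.71, exact permutation *p* = 0.0576), with *r* = 0.38 without the 2 farthest tumors. Within the 32 relations of the 8 tested genes with these markers in either model, these *p* values came to 0.32 for *r* and 0.61 for rho after Benjamini-Hochberg adjustment of the exact permutation tests, and none was below 0.05. Untreated and NAM-treated tumors were pooled in these relations, without removal of their group means. NAM-treated M/D tumor 1 was among the 2 farthest tumors for both marker means. It had the highest adipocyte mean with the highest *Nr1h3* (3418), and the lowest macrophage mean with the lowest *Apoe* (123792). Relations without this tumor alone were not computed. In M/D-driven tumors *Nr1h3* and 8 of 8 adipocyte markers had log2 differences above 0 with NAM. The same held for 6 of 6 endothelial, 5 of 5 skeletal muscle and 8 of 9 B cell markers. It held for 8 of 12 macrophage, 4 of 6 fibroblast, 2 of 6 T cell and 0 of 9 epithelial markers. Relations within a group were not tested.

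The genes most like *Abcg1* were sought by Pearson's *r* of the deviations from the group means over the 14 tumors, among 15413 genes. They were *Ttc7b* (*r* = 0.91), *Plekho2* (0.88), *Prmt9* (0.87), *Galnt2* (0.86) and *Slc25a12* (0.85), with values of 0.83 to 0.88 without NAM-treated M/D tumor 1. For *Apoe* they were *Rapsn* (0.93), *Casq2* (0.93), *Nptn* (0.93), the neighbouring apolipoprotein gene *Apoc1* (0.92) and *Rras* (0.92), with values of 0.88 to 0.92 without that tumor. Tumors share scale and depth over all these genes, and the coefficients are a description. Of the M/D-driven tumors, NAM-treated tumor 4 had the highest *Apoe* (346768 normalized counts) and the highest sum of skeletal muscle markers (239123). Coefficients without tumor 4 were not computed.

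The untreated tumors allowed for a comparison that did not use the NAM contrast. In RPKM, computed with the length of the longest transcript, *Apoe* had the highest level, with 2401 ± 588 in untreated M/D-driven (SD, *n* = 4) and 496 ± 42.4 in untreated AT3 tumors (SD, *n* = 3). In M/D-driven tumors *Srebf1* (70.01 ± 43.8), *Scd1* (55.1 ± 11.5), *Nr1h2* (46.5 ± 1.63) and *Lpcat3* (45.1 ± 2.72) followed, and these neighbours did not differ beyond their spread. *Mylip* (14.9 ± 3.36), *Abca1* (8.33 ± 0.62), *Nr1h3* (6.82 ± 0.92) and *Abcg1* (5.41 ± 0.78) were lower. In AT3 tumors the order was *Srebf1* (75.2 ± 36.7), *Nr1h2* (30.3 ± 6.35), *Lpcat3* (25.4 ± 7.87), *Scd1* (4.94 ± 1.66), *Mylip* (4.66 ± 0.81), *Nr1h3* (3.71 ± 0.71), *Abcg1* (0.74 ± 0.06) and *Abca1* (0.68 ± 0.32). The neighbours *Nr1h2* and *Lpcat3*, those from *Scd1* to *Nr1h3*, and the transporters *Abcg1* and *Abca1* were within their spread. The length of the longest transcript stands for the regions counted, so that levels between genes are approximate.

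**Figure D4:**
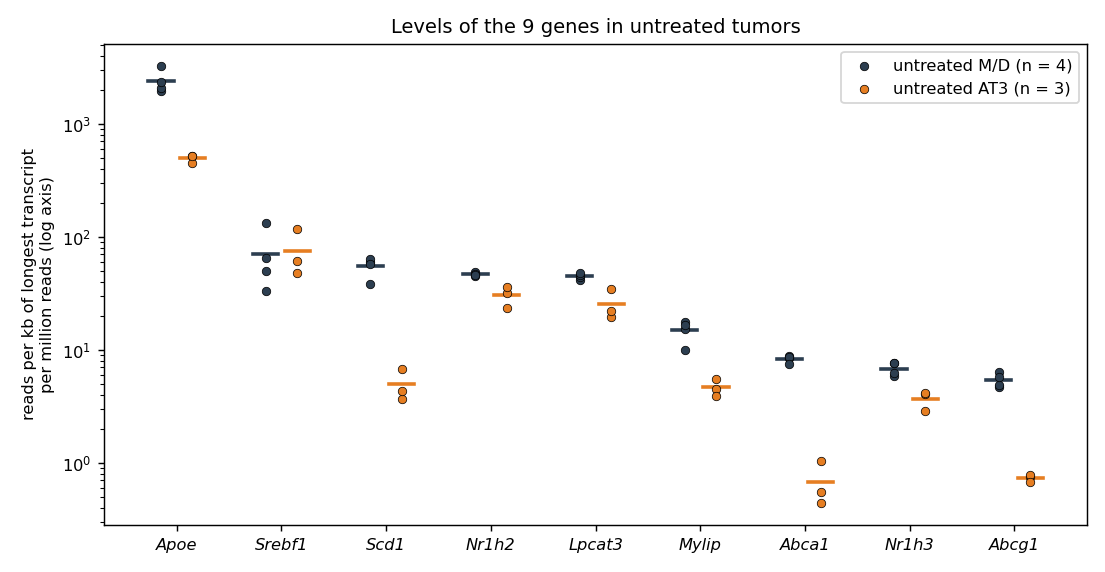
Levels of the 9 genes in untreated M/D-driven (dark, *n* = 4) and untreated AT3 tumors (orange, *n* = 3), in RPKM over the longest transcript (log axis), where dots are tumors and bars are means. The tumors of the models do not overlap for 8 of the 9 genes, against 52.6% of the 21650 genes tested, and *Srebf1* is the gene that overlaps, with means of 70.01 and 75.2.

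As the models had been normalized apart, recovered reads were put on a single scale over the 14 tumors for this comparison. On this scale 7 of the 9 genes were higher in untreated M/D-driven than in untreated AT3 tumors and 0 lower (limma, adjusted *p* ≤ 0.05 with a 1.5-fold change), against 50.4% of the 21650 genes tested, 30.4% being higher and 20% lower. The median log2 difference was 1.48 for the 9 genes and 0.22 for all genes. Transcript length was not corrected for here, and the *Abca1* and *Abcg1* transcripts are the longest of the 9. *Abca1* differed most, with 4967 ± 110 against 442 ± 144 rescaled counts and a log2 difference of 3.54 (SE 0.23; limma adjusted *p* = 4.0e-05). It was followed by *Scd1* (3.33, SE 0.30; limma adjusted *p* = 0.00013), *Abcg1* (2.69, SE 0.21; adjusted *p* = 7.5e-05), *Apoe* (2.07, SE 0.29; adjusted *p* = 0.00076) and *Mylip* (1.48, SE 0.23; adjusted *p* = 0.0012). *Lpcat3* (0.69, SE 0.19; limma adjusted *p* = 0.0146) and *Nr1h3* (0.71, SE 0.26; adjusted *p* = 0.0479) were called as well, but *Nr1h3* lost the call in 10 of 12 alternatives and *Lpcat3* in 3 of 12. *Nr1h2* (0.46, SE 0.17; limma adjusted *p* = 0.0522) and *Srebf1* (−0.36, SE 0.43; adjusted *p* = 0.50) were not called. Of the 64 pathway genes tested from the lists above, 33 were higher and 6 lower in untreated M/D-driven tumors, against 30.4% and 20% of all genes. Macrophage markers (9 of 12), adipocyte markers (8 of 8), endothelial markers (6 of 6), epithelial markers (6 of 9), T cell markers (4 of 6) and fibroblast markers (4 of 6) were also higher in untreated M/D-driven tumors, and their part in these differences was not tested. The macrophage marker *Cd14* and 1 of 9 B cell markers (*Rag1*) were lower, and 0 of 5 muscle markers were called. Whether model or experiment goes with these differences cannot be told apart, since AT3 tumors were all from experiment 3.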

How the data were processed

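RNA was extracted from whole tumors, and polyA libraries (TruSeq) were sequenced in paired-end mode. The authors mapped reads with STAR 2.4.0 on mm10, counted those on constitutive regions of Mouse FAST DB genes, and deposited a normalized signal (counts divided by DESeq2 size factors, models apart). For all 14 tumors, 100% of values came out as whole reads within 0.02 of a whole number. For high counts this tolerance was widened in proportion to the count, so that the check says little about the highest values. Members and lists were chosen with earlier results of these data known. Genes were named as follows: every member, and of other lists at most 4 called genes per model by fold change.

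Values were taken as log2(normalized count + 1) and tested in limma 3.58.1 under R 4.3.3 (eBayes with a trend), keeping genes whose mean reached 10 in either group. Untreated tumors of the models were compared on recovered reads scaled by TMM (edgeR 4.0.16). Alternatives were other pseudocounts, filters, scalings and fits, edgeR, DESeq2 1.42.0, removal of trends with length and GC content by a spline (longest GENCODE transcript on GRCm38), and each tumor left out. Fits were tested on simulated data. Of the lists, 2 genes are not reported here. Lengths were found for 85.1% (M/D) and 85.2% (AT3) of tested genes.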

Additional observations from a re-analysis of the deposited data

Results flagged for a closer look

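*Abca1* in untreated M/D tumor 3 (5022 normalized counts) was far below the 3 other untreated M/D-driven tumors in relation to their spread, which were at 5166 to 5186. *Nr1h3* in untreated M/D tumor 2 (692 normalized counts) was likewise apart from the 3 others, at 837 to 863. These were 2 of 18 groups of 4 tumors examined by Dixon's test at its 95% level, at which chance alone marks some groups.

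For *Lpcat3* the effect of NAM in M/D-driven tumors minus that in AT3 tumors was −1.06 on the log2 scale by the interaction term (limma adjusted *p* = 0.16). Each NAM-treated M/D-driven tumor was below, and each NAM-treated AT3 tumor above, all untreated tumors of its model. Of all genes tested, 2% were likewise lower without overlap in M/D-driven tumors, and 11.7% higher without overlap in AT3 tumors. An unadjusted *p* ≤ 0.05 of the limma interaction was found for 16.7% of genes. The *Lpcat3* call in M/D-driven tumors was lost without NAM-treated M/D tumor 1.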

How the results depend on the processing

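Of 567 differences of the 9 genes computed under alternatives, 517 kept their direction and their side of the threshold, and the causes of the others were not tested. With correction for length and GC content, *Srebf1* (0.0815) and *Nr1h2* (0.19) in M/D-driven tumors and *Nr1h2* (0.000776), *Apoe* (0.22) and *Scd1* (−0.36) in AT3 tumors changed sign. With this correction 0 of the 8 tested genes were called lower in M/D-driven and 0 higher in AT3 tumors. Calls over all genes in AT3 tumors went from 2358 higher and 2100 lower to 1295 and 1298. With TMM over the 14 tumors, the interaction changed sign for *Mylip* (−0.0208) and *Nr1h2* (−0.00872). Genes called higher in M/D-driven tumors (658) numbered 1219 without a filter, 312 with a minimum mean of 50, 992 by edgeR and 1287 by DESeq2, whereas those lower (692) numbered 1207 with all 14 tumors in 1 fit, 645 by edgeR and 808 by DESeq2. In AT3 tumors edgeR on recovered reads called 2512 higher and 2147 lower.

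Leaving out 1 tumor at a time gave 395 to 1201 genes higher and 351 to 1511 lower in M/D-driven tumors, 904 to 3459 higher and 714 to 3310 lower in AT3 tumors, and 0 to 178 higher and 0 to 539 lower in the interaction. Of the 8 tested genes, 1 to 2 were then higher and 0 to 1 lower in M/D-driven tumors, and 0 to 3 higher and 0 to 1 lower in AT3 tumors. Differences then ranged over 0 for *Srebf1* (−0.37 to 0.28), *Nr1h2* (−0.0727 to 0.0253) and *Apoe* (−0.18 to 0.31) in M/D-driven tumors, *Scd1* (−0.33 to 0.39) in AT3 tumors, and *Mylip* (−0.0852 to 0.35) and *Apoe* (−0.0430 to 0.45) in the interaction.

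Deviations of same-numbered tumors had an *r* of 0.11, −0.44, −0.22 and −0.19 in M/D-driven and of 0.13, 0.26 and −0.16 in AT3 tumors. For number 1 in M/D-driven and numbers 1 and 2 in AT3 tumors, this exceeded the highest *r* with another number (0.07, −0.09 and 0.19). These values cannot tell whether the numbers are a pairing, and the main fits used none. When the replicate number was used as a replicate block, 479 genes were higher and 522 lower in M/D-driven tumors and 2702 and 2380 in AT3 tumors, where 2 of the tested genes were called higher in place of 1, *Srebf1* being added. Depth was at least 40936868 reads per tumor.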
